A study of Mus musculus with 2 samples.

Results

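Integrins are the surface receptors with which hematopoietic cells hold on to matrix and to other cells, and their mRNAs were followed here together with those of the proteins that bind their cytoplasmic tails. The set held 41 genes of the 23284 gene symbols in the deposited tables, and all 41 were found by symbol. It comprised 25 integrin α and β chains, without the platelet αIIb chain, and 16 talins, kindlins, adaptors, kinases and Rap1 genes. The genes were measured by sequencing RNA of E14.5 FL LSK CD48– cells. These are fetal liver cells that carry Sca-1 and c-Kit but neither lineage markers nor CD48, a fraction rich in HSCs. There was 1 library from WT fetuses and 1 from ESAM-null fetuses, which carry a conventional homozygous deletion of the endothelial cell-selective adhesion molecule. The deletion is present in all cells of the fetus, so that the endothelial cells around these HSCs lacked ESAM as well. The mouse strain and the number of fetuses and cells per library were not given in the sources used here. GEO's sample labels also describe incubation of the sorted cells in methylcellulose, whereas the text of the study describes sorted cells, and the values were taken as those of sorted cells.

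Each integrin is a pair of 1 α and 1 β chain, and the pair decides the ligand. The α4β1, α5β1, α6β1 and α9β1 receptors bind VCAM-1, fibronectin, laminins and tenascin-C among other ligands, and β1 integrins are required for HSCs to seed the fetal liver. The β2 chain is found on leukocytes, where αLβ2 (LFA-1) and αMβ2 (Mac-1) bind intercellular adhesion molecules. Rap1 switches integrins on through its effector RIAM, which brings talin to the β tail. Kindlin binds the same tail beside talin, and the complex of integrin-linked kinase (ILK), PINCH and parvin, together with vinculin, paxillin and zyxin, joins the receptor to actin.

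Levels are given as the deposited FPKM, which divides fragments by exon length and library size, so that they can be compared between genes. The WT values rested on about 9544478 reads and the ESAM-null values on about 11715046, as estimated from the spacing of the lowest values. With 1 library per genotype there is no replicate spread, no test and no p-value. Intervals given below are 95% exact (Clopper-Pearson) counting intervals from approximate reads per gene, and cover counting error only. Esam itself was 117.6 FPKM in WT against 12.1 FPKM in ESAM-null. All 9 HSC and progenitor markers, among them Kit, Ly6a, Procr and Cd34, were above 5 FPKM in both libraries, with summed levels of 775 FPKM in WT against 772 FPKM in ESAM-null.

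Of the 41 genes, 24 reached 1 FPKM in at least 1 library and 17 did not. Of these 17, 7 were listed at 0 in both libraries. Among the 24, 2 were lower by 2-fold or more in ESAM-null (Itgam and Fermt2) and 1 was at least 2-fold higher (Itga9). Fermt2 reached 1 FPKM only in WT, so that the filter itself favoured a low ratio for it. With 1 FPKM required in both libraries, 1 of 23 members was lower. Over all 12066 genes that reached 1 FPKM, 12.8% were at least 2-fold lower and 7.42% at least 2-fold higher. With the deposited values, the members' shares at this limit, 8.33% and 4.17%, were not above this background. Below 1 were 17 of the 24 ratios (70.8%), against 50.0% of all genes. The median log2 ratio was -0.19 for the 24 members and 0.01 for all genes. At 1.5-fold, 6 of the 24 members were lower, against 21.8% of all genes, and 1 was higher, against 17.4%. At 3-fold no member was lower or higher, against 7.27% and 4.06% of all genes. After both libraries were brought to a total of 1000000, 6 of the 24 members were lower (Itga5, Itga6, Parvg and Lims1 in addition). This is 25%, against 18.3% of all genes. After median scaling 4 were lower, 16.7% against 13.2% of all genes. Itga5 and Lims1, which median scaling added, were 1.98-fold and 1.99-fold lower as deposited, so that a small shift took them past the limit. After upper quartile scaling 2 were lower, 8.33% against 12.6% of all genes. Whether the members' lower share was above or below that of all genes thus depended on the scaling. The 10 measured integrin chains had a median log2 ratio of -0.37 and the 14 measured adaptors, kinases and Rap1 genes one of -0.17. With the deposited values, the counting interval left out equality for 18 of the 24 members and lay wholly beyond 2-fold for 1, Itga9. The same shares were not computed over all genes, so these counts do not set the members apart. With many reads a small difference is enough, as for Fermt3 at 1.07-fold lower. After rescaling to a total of 1000000 the log2 ratio of Itga9 was 1.04 in place of 1.32, and its interval then reached under 2-fold.

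**Figure D1:**
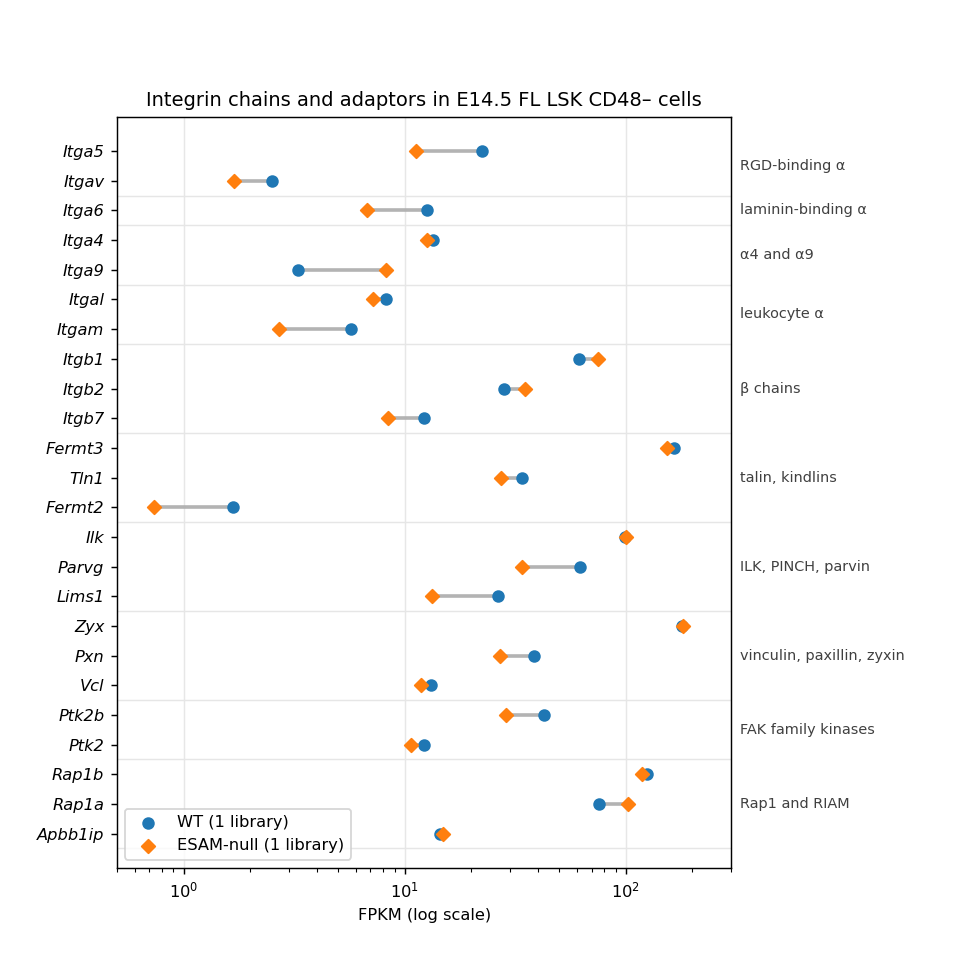
FPKM (horizontal log axis) of the 24 members that reached 1 FPKM, grouped by role, 1 library each (circle, WT; diamond, ESAM-null; the grey bar joins them). Zyx and Fermt3 lie farthest to the right in both libraries, Itga5, Itga6, Parvg and Lims1 shift to the left in ESAM-null, and Itga9 shifts to the right.

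The 3 measured α chains that bind RGD-containing ligands or laminin were below their WT level in ESAM-null. Itga5, the fibronectin receptor α chain (chromosome 15, 103344286 to 103366763, mm10), was the highest α chain in WT at 22.3 FPKM and was 11.3 FPKM in ESAM-null. This is 1.98-fold lower (interval 1.77 to 2.22), just inside the 2-fold limit. Of the 3134 genes with a mean level of 10 to 30 FPKM, 5.55% had a ratio as low or lower. Itga6, a laminin receptor chain and a surface marker of stem cells (chromosome 2, 71745616 to 71858416), was 12.6 FPKM in WT against 6.78 FPKM in ESAM-null, 1.85-fold lower (1.59 to 2.15). A ratio at or under that of Itga6 was found for 20.1% of genes between 3 and 10 FPKM. The mean level of Itga6 was near the upper edge of that range. Between 10 and 30 FPKM, 16.6% of genes were at least 1.5-fold lower and 5.30% at least 2-fold lower. How rare the ratio of Itga6 is at its own level is thus uncertain. Itgav, which pairs with several β chains, was 2.52 FPKM and 1.69 FPKM, 1.49-fold lower (1.17 to 1.90).

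The α4 and α9 chains, which are close relatives and both bind VCAM-1, took different courses. Itga4 (chromosome 2, 79255426 to 79333123) was 13.4 FPKM in WT against 12.6 FPKM in ESAM-null, and its interval of the ratio, 0.871 to 1.02, includes equality. Itga9 (chromosome 9, 118606690 to 118901003) was 3.29 FPKM (about 132 reads) in WT and 8.23 FPKM (about 360 reads) in ESAM-null. It was thus 2.50-fold higher (2.04 to 3.07), and 4.28% of genes between 3 and 10 FPKM had a ratio as high or higher. Of 1997 genes of 3 to 30 FPKM with transcripts of at least 4000 bases, as Itga9 has, 46 were 2-fold or more higher, Itga9 among them, and 229 were 2-fold or more lower.

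The promoters of the highest α chain in each library, Itga5 in WT and Itga4 in ESAM-null, and of Itgam, the α chain that was at least 2-fold lower, are shown for reference. Each is the 250 bases before the transcription start on the gene's own strand, from RefSeq on GRCm38, the assembly of mm10. Capitals mark the GC box, GGGCGG, which binds Sp1, and the PU.1 core, GAGGAA, which binds a myeloid Ets factor, on either strand. The Itga5 window is chr15:103366792-103367041 (minus strand), that of Itga4 chr2:79255176-79255425 (plus strand) and that of Itgam chr7:128062390-128062639 (plus strand).
Itga5: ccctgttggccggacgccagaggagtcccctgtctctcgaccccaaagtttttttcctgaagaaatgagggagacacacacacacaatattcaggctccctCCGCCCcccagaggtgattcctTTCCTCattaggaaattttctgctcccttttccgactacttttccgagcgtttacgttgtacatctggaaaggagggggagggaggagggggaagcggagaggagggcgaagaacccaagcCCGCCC
Itga4: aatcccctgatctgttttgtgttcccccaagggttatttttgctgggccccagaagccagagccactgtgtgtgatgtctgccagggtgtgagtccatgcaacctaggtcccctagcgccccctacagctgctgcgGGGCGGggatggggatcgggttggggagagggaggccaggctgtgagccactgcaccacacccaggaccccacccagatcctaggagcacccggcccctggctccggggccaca
Itgam: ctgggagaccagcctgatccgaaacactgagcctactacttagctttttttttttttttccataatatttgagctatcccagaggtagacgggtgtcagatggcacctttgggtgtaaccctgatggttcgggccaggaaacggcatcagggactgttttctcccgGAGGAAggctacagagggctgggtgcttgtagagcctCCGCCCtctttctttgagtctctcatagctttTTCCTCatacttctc
The Itga5 window held 2 GC boxes and 1 PU.1 core, the Itga4 window 1 GC box and no PU.1 core, and the Itgam window 1 GC box and 2 PU.1 cores. Of the 41 genes, 28 had promoters in the table, 34 windows in all. The GC box was found in 44.1% of these windows and in 32.7% of the 32851 windows of all genes, and the PU.1 core in 29.4% and 23.3%. These matches describe letters and were not tested for binding.

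Because FPKM shares within 1 library do not depend on how the libraries were scaled, the α chains were also set against each other. The 12 α chains that pair with β1 summed to 55.4 FPKM in WT against 42.7 FPKM in ESAM-null. Itga5 made up 40.4% of this sum in WT and 26.4% in ESAM-null. Itga6 made up 22.7% and 15.9%. In contrast, Itga4 made up 24.2% and 29.6% at nearly the same FPKM, and Itga9 5.95% and 19.3%. The order of the α chains by level was Itga5, Itga4, Itga6, Itga9 in WT and Itga4, Itga5, Itga9, Itga6 in ESAM-null. Itga4 and Itga5 were close neighbours in ESAM-null, with a ratio of 1.12, and with 1 library each the order has no replicate check. The ratio of Itga9 to Itga5 was 0.147 in WT and 0.730 in ESAM-null, 4.96-fold higher, with a counting interval of 3.95 to 6.23 (normal approximation on the log scale, as for all ratios between genes).

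**Figure D2:**
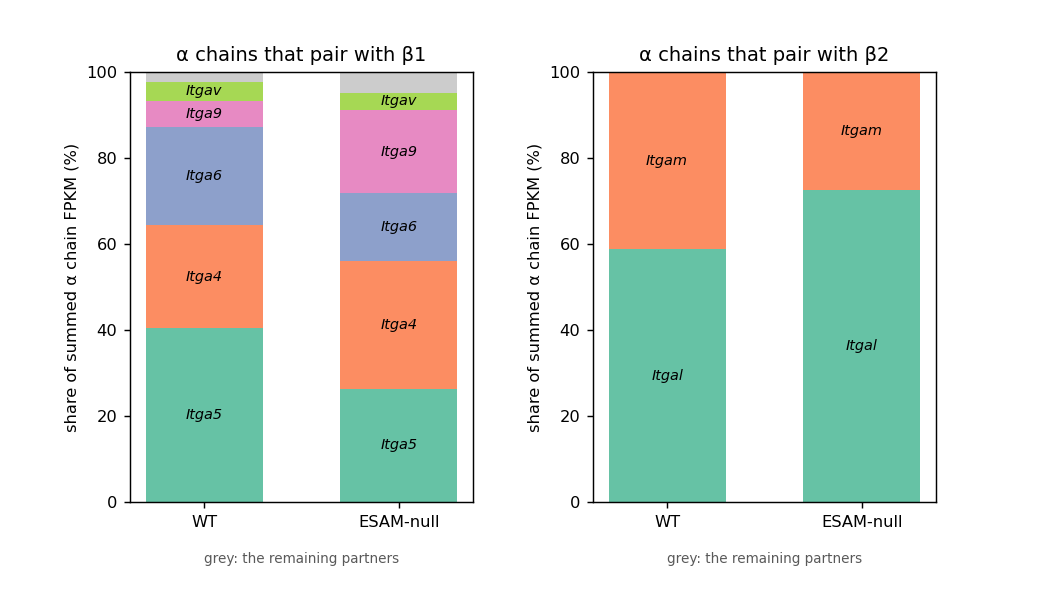
Share (vertical axis, percent) of each α chain in the summed FPKM of the α chains that pair with β1 (left) and with β2 (right), in the WT and the ESAM-null library, 1 library each. Itga5 takes 40.4% of the β1 partners in WT and 26.4% in ESAM-null, and Itga9 takes 5.95% and 19.3%; among the β2 partners Itgam takes 40.8% and 27.4%.

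The β1 and β2 chains, which these α chains share, were slightly above their WT level. Itgb1, the partner of all 12 of these α chains (chromosome 8, 128685654 to 128733200), was 61.2 FPKM in WT against 74.8 FPKM in ESAM-null, 1.22-fold higher (1.16 to 1.30). The sum of α chains per unit of Itgb1 FPKM was 0.905 in WT and 0.570 in ESAM-null. Itgb2, the leukocyte β chain (chromosome 10, 77530252 to 77565708), was 28.1 FPKM and 34.8 FPKM, 1.24-fold higher (1.12 to 1.36). Such ratios were common at this level. Of genes between 30 and 100 FPKM, 30.7% had a ratio at or above that of Itgb1 and 29.3% at or above that of Itgb2. With both libraries brought to a total of 1000000, the log2 ratios were 0.01 for Itgb1 and 0.03 for Itgb2 in place of 0.29 and 0.31. Itgb7, which pairs with α4 in the receptor for the mucosal addressin, was 12.2 FPKM and 8.42 FPKM, 1.45-fold lower (1.21 to 1.74). The ratio of Itga5 to Itgb1 was 2.43-fold lower in ESAM-null (2.14 to 2.75), whatever the scaling. That of Itga6 to Itgb1 was 2.27-fold lower (1.94 to 2.66). Shifts that go with level or transcript length do not cancel in such ratios or in the shares above. The median log2 ratio of all genes was 0.10 at 30 to 100 FPKM, where Itgb1 lies. It was -0.07 at 10 to 30 FPKM, where Itga5 lies, and -0.20 at 3 to 10 FPKM, where Itga6 lies near the upper edge. The part of level and length in these ratios was not tested.

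The α partners of β2 were both below their WT level. Itgam, the α chain of Mac-1 (chromosome 7, 128062640 to 128118491), was 5.71 FPKM (about 239 reads) in WT and 2.70 FPKM (about 123 reads) in ESAM-null. This is 2.11-fold lower (1.70 to 2.66), with 14.3% of genes between 3 and 10 FPKM at or under that ratio. Itgal, the α chain of LFA-1, was 8.22 FPKM and 7.17 FPKM, 1.15-fold lower, and its interval includes equality. The ratio of Itgam to Itgal was 0.694 in WT and 0.377 in ESAM-null, 1.84-fold lower (1.42 to 2.39). Mac-1 is present at a low level on fetal liver HSCs and at a high level on myeloid cells. Of 9 macrophage markers, 7 reached 1 FPKM. At least 2-fold lower were 3 of these, Cd5l, C1qa and Marco, against 12.8% of all genes. These 3 reached 1 FPKM only in WT, so that the filter itself favoured a low ratio for them. Emr1, Cd5l, C1qa and Marco, which had 0.698 to 2.91 FPKM in WT, were at 0 in the ESAM-null list. Of the same markers, Csf1r was 2.17 FPKM in WT and higher in ESAM-null at 3.59 FPKM, C1qc was 3.38 FPKM and 5.07 FPKM, and C1qb was 3.85 FPKM and 1.94 FPKM. The macrophage list summed to 349.8 FPKM in WT against 344 FPKM in ESAM-null, nearly all of it Lyz2, which myeloid progenitors also express. Of 5 measured granulocyte markers none was past 2-fold, with sums of 260.7 FPKM and 266 FPKM. Most of these sums was Prtn3, at 186 FPKM and 193 FPKM, and Mpo, at 63.9 FPKM and 62.8 FPKM. Elane and Ctsg were listed at 0 in both. The part of other cells in the Itgam value was not tested, and fewer cells of a type cannot be told apart from less RNA per cell.

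Of the 25 integrin chains, 15 stayed under 1 FPKM in both libraries. Listed at 0 in both were Itga1, Itga7, Itga11, Itgax, Itgb6 and Itgb8, as was the epithelial kindlin gene Fermt1. The collagen receptor chain Itga2 was 0.396 FPKM in WT against 0.146 FPKM in ESAM-null, and Itgb3, the β chain of the vitronectin and platelet fibrinogen receptors, was 0.495 FPKM and 0.140 FPKM. Itgb4, which pairs with α6 in epithelia, was 0.493 FPKM and 0.0838 FPKM. These 3 rested on 26 reads each in WT and on 5 to 10 reads in ESAM-null. Itgb5, another partner of αv, was 0.696 FPKM (about 19 reads) in WT and was listed at 0 in ESAM-null, where the interval of the ratio is 0 to 0.196. Itgad and Itgae each had about 2 reads in WT and none in ESAM-null, so that a difference was not detectable at this depth. For Itgb3, the megakaryocyte markers stood beside it at 85.7 FPKM in WT against 96.8 FPKM in ESAM-null in sum, with 1 of 6 measured lower and 1 higher. Of all genes 12.8% were lower and 7.42% higher at the same 2-fold limit.

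Itga8, the nephronectin receptor α chain (chromosome 2, 12106632 to 12301922), went the opposite way. It was 0.019 FPKM (about 1 read) in WT and 0.909 FPKM (about 52 reads) in ESAM-null. The ratio was 47.8, and with a single read in WT its counting interval runs from 8.17 to 1915. It stayed under the limit of 1 FPKM and is not among the 24. Itga3 was 0.753 FPKM and 0.944 FPKM, Itga10 0.0877 FPKM and 0.101 FPKM, and Tln2 0.0533 FPKM and 0.0735 FPKM, all with intervals that include equality.

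**Figure D3:**
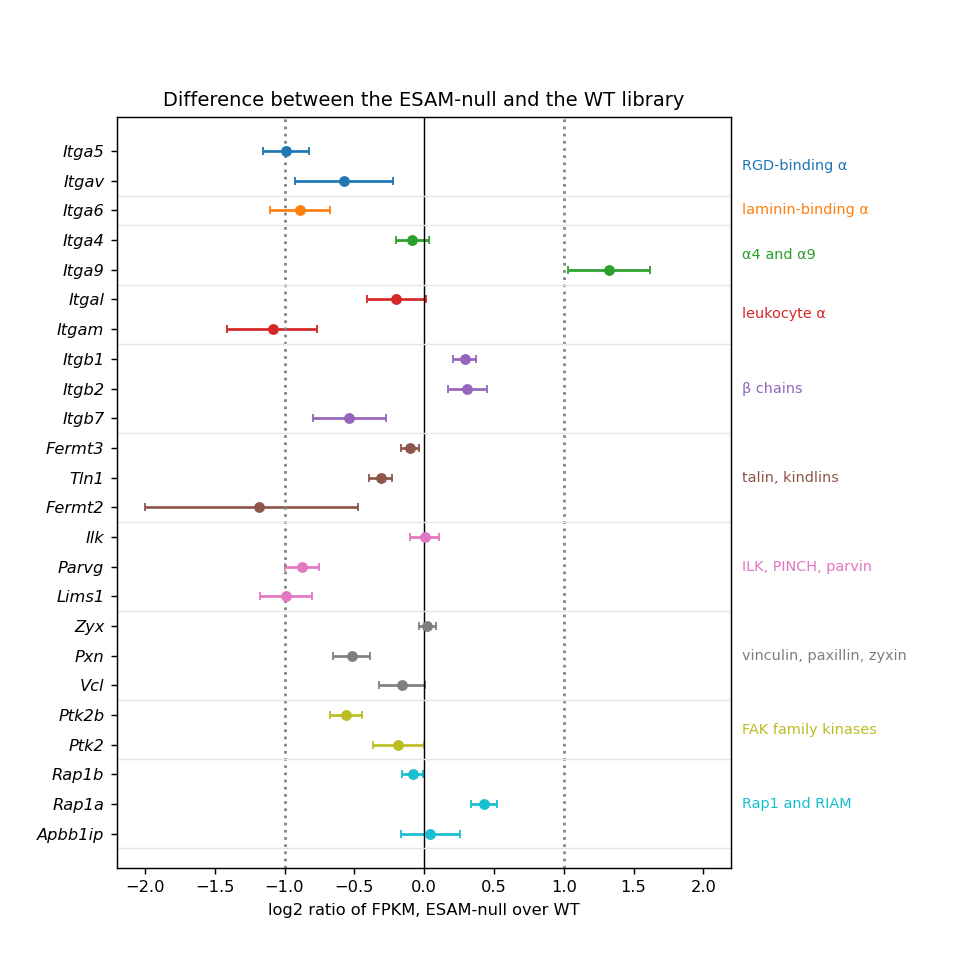
Log2 of the ESAM-null level over the WT level (horizontal axis) for the 24 measured members, coloured and grouped by role, with 95% counting intervals as bars and dotted lines at 2-fold. Itga9 lies to the right of 2-fold, Itgam and Fermt2 lie to the left of it, Itga5, Itga6, Parvg and Lims1 lie just inside it, and Ilk, Zyx and Apbb1ip lie near 0.

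Talin-1 and kindlin-3, which activate integrins from the inside, were well expressed in both libraries. Fermt3, kindlin-3, the kindlin of blood cells (chromosome 19, 6998958 to 7019469), was the second highest member at 165 FPKM in WT against 154 FPKM in ESAM-null, 1.07-fold lower (1.03 to 1.12). Tln1, talin-1, was 33.8 FPKM and 27.3 FPKM, 1.24-fold lower (1.17 to 1.31). Fermt2, kindlin-2, the form of adherent tissues (chromosome 14, 45458795 to 45530118), was 1.68 FPKM and 0.738 FPKM. This is 2.27-fold lower on about 49 and 23 reads (1.39 to 4.005), at a level of 1 to 3 FPKM where 538 of 1796 genes were 2-fold or more lower. Kindlin mRNA was almost wholly of the blood cell form, with 98.7 times as much Fermt3 as Fermt2 in WT and 209 times as much in ESAM-null.

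Within the complex of ILK, PINCH and parvin the 3 genes differed. Ilk was 99.6 FPKM in WT against 99.97 FPKM in ESAM-null. Lims1, which encodes PINCH-1, the LIM protein that binds ILK (chromosome 10, 58323466 to 58424691), was 26.4 FPKM and 13.3 FPKM, 1.99-fold lower (1.75 to 2.26). Parvg, γ-parvin, the parvin of blood cells (chromosome 15, 84324026 to 84342978), was 62.3 FPKM and 34.0 FPKM, 1.83-fold lower (1.68 to 1.997). Of the 2352 genes with a mean level of 30 to 100 FPKM, only 1.36% had a ratio at or under that of Parvg, and 5.46% of genes between 10 and 30 FPKM had one at or under that of Lims1. Parvg thus stood farthest toward the low edge of its level range among the 24 members. Per unit of Ilk, Lims1 was 1.99-fold lower (1.73 to 2.3045) and Parvg 1.84-fold lower (1.65 to 2.05) in ESAM-null. Of the exon bases of Ilk, 98.7% overlap exons on the opposite strand, chiefly those of a long transcript of Taf10. Strand is not stated for the counting, so reads of the 2 genes cannot be told apart where they overlap, and the Ilk value is uncertain on this account.

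Of the actin-linked adaptors, Zyx, zyxin, was the highest member in both libraries, at 179 FPKM in WT against 182 FPKM in ESAM-null, with an interval of the ratio of 0.973 to 1.06. Vcl, vinculin, was 13.2 FPKM and 11.8 FPKM, with an interval that includes equality, and 39.7% of its exon bases overlap Ap3m1 on the opposite strand. Pxn, paxillin, was 38.6 FPKM and 27.0 FPKM, 1.43-fold lower (1.31 to 1.57). The kinase bound by paxillin in blood cells, Ptk2b (PYK2), was 42.5 FPKM and 28.9 FPKM, 1.47-fold lower (1.36 to 1.59). Of genes between 30 and 100 FPKM, 6.80% had a ratio at or under that of Pxn and 5.36% at or under that of Ptk2b. Both genes lay near the lower edge of that range. Between 10 and 30 FPKM, 16.6% of genes were at least 1.5-fold lower. Ptk2, focal adhesion kinase, was 12.2 FPKM and 10.7 FPKM, 1.14-fold lower.

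The Rap1 switch was abundant in both libraries. Rap1b was 124.8 FPKM in WT against 118 FPKM in ESAM-null, 1.06-fold lower (1.01 to 1.11). Rap1a was 75.9 FPKM and 102 FPKM, 1.35-fold higher (1.26 to 1.44), the largest increase among the 14 measured genes that are not integrin chains. A ratio as high or higher was found for 21.1% of genes between 30 and 100 FPKM. After rescaling to a total of 1000000 the log2 ratio of Rap1a was 0.15 in place of 0.43. Rap1a has a processed pseudogene that could share its reads, which was not tested. Apbb1ip, which encodes RIAM, was 14.497 FPKM and 14.958 FPKM, with an interval of the ratio that includes equality.

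The position of the members among all genes depended on level. At 100 FPKM or more, all genes had a median log2 ratio of 0.36, and the 3 members there, Zyx, Fermt3 and Rap1b, had a median of -0.08. Between 30 and 100 FPKM the medians were 0.10 for all genes and -0.15 for 8 members, and between 10 and 30 FPKM they were -0.07 and -0.19, with 7 members. In each of these ranges 0.723% to 5.30% of all genes were at least 2-fold lower, and no member was. The members' transcripts were longer than those of genes at large, with a median of 3554 bases against 2734 bases. Across all genes, the log2 ratio fell with transcript length (Spearman correlation -0.30 over 11538 genes, which share the same 2 libraries), and across the 24 members it was -0.26. The part of transcript length in the members' ratios was not tested.

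**Figure D4:**
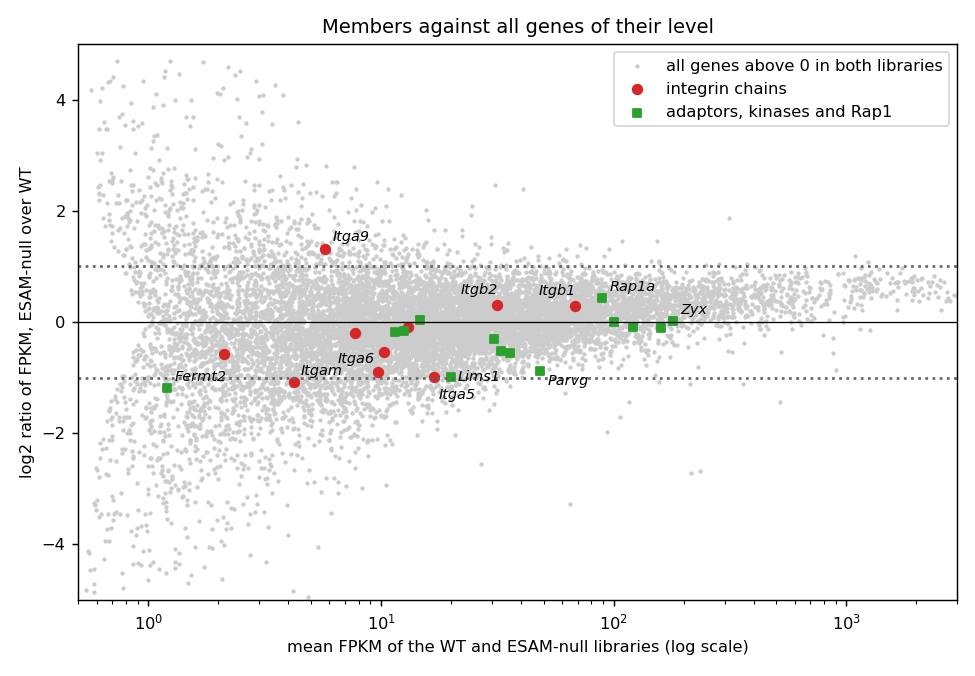
Log2 of the ESAM-null level over the WT level (vertical axis) against the mean FPKM of both libraries (horizontal log axis) for all genes above 0 in both (grey, 11571 genes drawn and 92 outside the axes), integrin chains (red circles) and the adaptors, kinases and Rap1 genes (green squares). Dotted lines mark 2-fold. Parvg, Lims1 and Itga5 lie in the lower part of the cloud at their level and Itga9 in its upper part, with other genes beyond each of them.

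Genes linked to integrin signaling outside the 41 were described from a list of 69 regulators, of which 68 were in the files and 58 reached 1 FPKM. Of the 58, 6 were at least 2-fold lower, 10.3% against a background of 12.8%, and 2 were higher, 3.45% against 7.42%, with a median log2 ratio of -0.16. Crkl, an adaptor that carries an exchange factor for Rap1, was 16.1 FPKM in WT against 6.69 FPKM in ESAM-null, 2.40-fold lower (interval of the ratio 0.349 to 0.497). Vav3, a guanine nucleotide exchange factor, was 31.9 FPKM and 14.1 FPKM, 2.26-fold lower (0.398 to 0.489). Sipa1l1, which inactivates Rap, was 2.39 FPKM and 0.299 FPKM, Kank2, which binds talin, 3.29 FPKM and 0.524 FPKM, and Arhgef7, which encodes β-PIX, 4.87 FPKM and 1.97 FPKM. The 2 higher genes were Cd151, a tetraspanin that binds laminin receptors, at 2.89 FPKM and 7.71 FPKM, and Itgb1bp2, at 0.781 FPKM and 2.78 FPKM on about 8 and 32 reads. Sipa1l1 and Kank2 reached 1 FPKM only in WT and Itgb1bp2 only in ESAM-null. The filter itself thus favoured a large ratio for them. The most abundant regulators were within 2-fold, namely Cd47, Cd63, Cd81, Cdc42 and Rac1, which lay between 277.8 and 357 FPKM in WT and between 298.6 and 474 FPKM in ESAM-null.

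Ligands of the integrins were also measured in the same cells. Of 38 listed, 19 reached 1 FPKM, and 4 of these were lower (21.1%, against 12.8% of all genes) and 3 higher (15.8%, against 7.42%), with a median log2 ratio of -0.20. Col1a2, Lamb2, Lama5 and Fbn1 reached 1 FPKM in only 1 library, so that the filter itself favoured a large ratio for them. Lamb2 had a mean level of 1 to 3 FPKM. Of the 1796 genes in that range, 538 were 2-fold or more lower and 354 were 2-fold or more higher. Matrix genes were found among both the lower and the higher ones. Col4a1, a collagen of basement membranes, was 20.9 FPKM in WT against 8.01 FPKM in ESAM-null, 2.60-fold lower (interval of the ratio 0.346 to 0.426), and Lamc1, a laminin chain, was 5.69 FPKM and 1.85 FPKM, 3.07-fold lower (0.267 to 0.397). Lamb2, another laminin chain, was 2.88 FPKM and 0.306 FPKM, and Col1a2, a chain of fibrillar collagen, 1.05 FPKM and 0.0592 FPKM on about 51 and 3 reads. Beside these, the stroma markers summed to 2.25 FPKM in WT against 0.598 FPKM in ESAM-null, and their part in the values was not tested; Col1a2 is itself among them. The endothelial markers, whose cells also make these proteins, summed to 862 FPKM and 887 FPKM, of which Egfl7 was 826 FPKM and 852 FPKM. Of 6 measured endothelial markers, 0 were at least 2-fold lower and 1, Cdh5, was higher, against 12.8% and 7.42% of all genes. Cdh5, at 0.954 FPKM and 3.33 FPKM, reached 1 FPKM only in ESAM-null. Tek was 10.9 FPKM and 16.3 FPKM, whereas Pecam1 was 20.8 FPKM and 12.1 FPKM. The part of endothelial cells in the ligand values was not tested. Higher were Icam4, an erythroid ligand of several integrins, at 4.70 FPKM and 11.4 FPKM, Lama5, a laminin chain, at 0.294 FPKM and 1.05 FPKM, and Fbn1, the matrix protein fibrillin-1, at 0.0547 FPKM and 1.42 FPKM on about 5 and 140 reads. Erythroid markers, which stand beside Icam4, summed to 396 FPKM in WT against 67.7 FPKM in ESAM-null, most of it Hba-a2 at 373 FPKM and 57.1 FPKM. Of these 7 markers, 4 were 2-fold or more lower, against 12.8% of all genes, and 1, Ermap, was higher, against 7.42%. Ermap was 0.366 FPKM and 1.30 FPKM, and Rhag was 3.67 FPKM and 6.15 FPKM. Slc4a1, Alas2 and Epb4.2 reached 1 FPKM only in WT and Ermap only in ESAM-null. The filter itself thus favoured a large ratio for these markers. The most abundant ligand, Icam2, which binds LFA-1, was 76.0 FPKM in WT against 117 FPKM in ESAM-null, 1.54-fold higher. Tgfb1, Mfge8, Emilin1 and Jam3 followed it and were all within 2-fold.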

How the data were processed

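1 WT and 1 ESAM-null library of sorted E14.5 FL LSK CD48– cells were analysed. The authors deposited FPKM per gene symbol. cDNA came from a kit for ultra-low RNA input, and reads were 75 bp and single-end. The submitters' processing notes name mm10, Cuffnorm 2.2.1, SAMtools 0.1.19, TopHat2 2.0.13 and Bowtie2 2.2.3. The gene annotation, strand setting and treatment of multiply mapped reads were not given in the sources used here.

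From these values, ESAM-null FPKM was divided by WT FPKM per gene. A gene entered the counts where either library reached 1 FPKM, and the limit was 2-fold. The members and lists were chosen with earlier results of these data known, and the ratios between chains were chosen after their values were seen. Every member with at least 1 FPKM was named; of the other lists, the 5 highest genes and up to 6 past 2-fold in each direction, of which 1 is not reported here. Approximate reads were obtained from FPKM, the median length of RefSeq-linked GENCODE M21 transcripts (found for 98.0% of symbols), an assumed fragment length of 200 bp (SD 80 bp) and the value of 1 read, which was read from the steps of low values. Low values came within 0.05 of a whole read for 66.8% of 800 WT genes and 72.7% of 517 ESAM-null genes. The 2-fold calls and the counting intervals were run on simulated counts. These used the read value and lengths above, so that neither was tested, and held no spread between libraries. Coordinates are GENCODE M21 (GRCm38, the assembly of mm10). Promoters were matched by symbol. Alternatives were other filters, pseudocounts, thresholds and scalings. Software was scipy 1.17.1, numpy 2.4.6, matplotlib 3.10.9 and pandas 2.3.3 under Python 3.11.15.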

Additional observations from a re-analysis of the deposited data

How the results depend on the processing

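No paired analysis was possible because each genotype has 1 library. The number of members at least 2-fold lower, 2 as reported, was 8 with no filter, 1 with at least 5 FPKM in 1 library or 1 FPKM in both, 0 with a pseudocount of 1 FPKM, 4 after median scaling (Itga5 and Lims1 added), 6 after rescaling to a total of 1000000 (Itga6 and Parvg added to those 4), 6 at 1.5-fold and 0 at 3-fold. The number higher, 1 as reported, was 2 with no filter and 0 at 3-fold. Rescaling to a total of 1000000 moves every log2 ratio by -0.28, takes the median of the members from -0.19 to -0.47, and takes all genes to 18.3% lower and 5.45% higher; under it 20 of 24 single ratios left their counting interval, and under median scaling or a pseudocount of 1 FPKM none did. Of the linked regulators, 6 as reported were lower, against 16 with no filter, 2 at 5 FPKM, 13 after rescaling to the total, 14 at 1.5-fold and 2 at 3-fold; 2 were higher, against 1 at 5 FPKM, 1 with 1 FPKM in both, 5 at 1.5-fold and 1 at 3-fold. Of the ligands, 4 were lower, against 11 with no filter and 2 at 5 FPKM or with 1 FPKM in both; 3 were higher, against 1 under both of those filters. Upper quartile scaling and a pseudocount of 0.1 FPKM changed no count. With no filter the counts are out of 34 members, 68 regulators and 30 ligands. At 5 FPKM they are out of 22, 45 and 13, and with 1 FPKM in both out of 23, 53 and 15. The share of all genes was not computed under other filters or pseudocounts, so the counts under them have no background. The lower shares of all genes at the other thresholds and scalings are given above. The causes of these shifts other than the settings themselves were not tested. Depth limits the members under 1 FPKM, which rested on at most 52 reads in a library.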
